A study of Rattus norvegicus with 12 samples.

Results

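The faecal bacteria of rats with experimental subarachnoid haemorrhage that had received tetrandrine together with antibiotics were set against those of rats with haemorrhage alone. The comparison used 6 of the 12 libraries of the study: 3 labelled SAH+Tet+ABX, taken here as haemorrhage, tetrandrine and antibiotics, and 3 labelled SAH. Each library is a count of reads of the bacterial 16S rRNA gene, amplified from faecal DNA. The reads are sorted into amplicon sequence variants (ASVs), exact sequences that each carry a lineage. All 6 libraries come from animals with the haemorrhage model. The sources used here do not give the strain, age or sex of the rats, nor the antibiotics, doses or times. No label ties a library to a separate animal, so p-values measure only the spread between these libraries. Tetrandrine and antibiotics were both absent from the SAH group and both present in the other, so their contributions cannot be told apart in this comparison.

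Tetrandrine is a plant alkaloid that blocks calcium channels. Broad antibiotic mixtures remove many strict anaerobes from the rodent gut and leave or favour lineages that tolerate them, that survive as spores or that regrow on the nutrients set free. In an undisturbed rat colon most bacteria are Clostridia, which ferment fibre to short-chain fatty acids such as butyrate, and Bacteroidales, which break down plant and host glycans. Smaller guilds use hydrogen, sulfate or mucus.

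Depth was uneven: SAH 1 to 3 had 248285, 531426 and 448795 reads, and SAH+Tet+ABX 1 to 3 had 211450, 234185 and 244856. SAH 1 was thus close in depth to the antibiotic libraries, and SAH 2 and SAH 3 were deeper. Where no read was found, the upper limit (3 reads) was 0.000565% to 0.00142% of reads, depending on the library and covering counting error only. SAH 1 also stood apart from SAH 2 and SAH 3 in composition. Corynebacterium, for example, was 0.0451% of its reads against 10.2% and 9.40%. Of the SAH+Tet+ABX libraries, replicate 1 stood apart, with Muribaculaceae at 9.91% against 34.3% and 31.0%. Values without each library, and against SAH 1 alone, are given for some results below, and not for every call that they change. All values are shares of reads: no bacterial load was used, so fewer cells of a lineage and more cells of the others cannot be told apart. The families that make up a rat faecal community (Lachnospiraceae, Oscillospiraceae, Ruminococcaceae, Muribaculaceae, Prevotellaceae, Lactobacillaceae and Erysipelotrichaceae) had reads in all 6 libraries. Of a list of 14 reagent and environmental genera, Brevundimonas was the 1 with enough reads to test. It was 0.00209% ± 0.00109 of reads in SAH and 0.00297% ± 0.00153 in SAH+Tet+ABX (mean ± SD, n = 3 in each group, as for all means below). The list does not hold Pseudomonas, described below, so it does not bound all reads from outside the gut.

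Firmicutes in total, Lachnospiraceae and Lactobacillaceae had similar mean shares in both groups, other large families differed more in mean share, and several small families had no read in the antibiotic libraries. Firmicutes took 66.5% ± 12.2 of reads in SAH and 66.4% ± 18.3 in SAH+Tet+ABX, and Bacteroidota 22.8% ± 5.11 and 29.9% ± 16.7. Lachnospiraceae, the main fibre-fermenting Clostridia, were 29.6%, 16.1% and 17.5% of the SAH libraries and 32.7%, 13.2% and 33.1% of the SAH+Tet+ABX libraries. Lactobacillaceae were 26.5%, 15.6% and 10.2% against 34.3%, 15.2% and 7.66%. The ranges of both families overlapped. Muribaculaceae, the dominant glycan-degrading Bacteroidales of rodents, were 12.7%, 13.4% and 15.3% in SAH and spread from 9.91% to 34.3% in SAH+Tet+ABX, and were not called (adjusted p = 0.107 in the test named next). Ruminococcaceae were 5.84%, 4.68% and 4.93% against 0.749%, 2.73% and 2.80%, and Oscillospiraceae 5.28%, 3.52% and 5.08% against 2.27%, 1.66% and 3.30%. Both were below every SAH library in every SAH+Tet+ABX library, but neither passed the test (edgeR quasi-likelihood test, Benjamini-Hochberg adjusted p = 0.154 and 0.344), and on the centred scale described below both differences turn positive (log2 1.54 and 2.09).

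**Figure D1:**
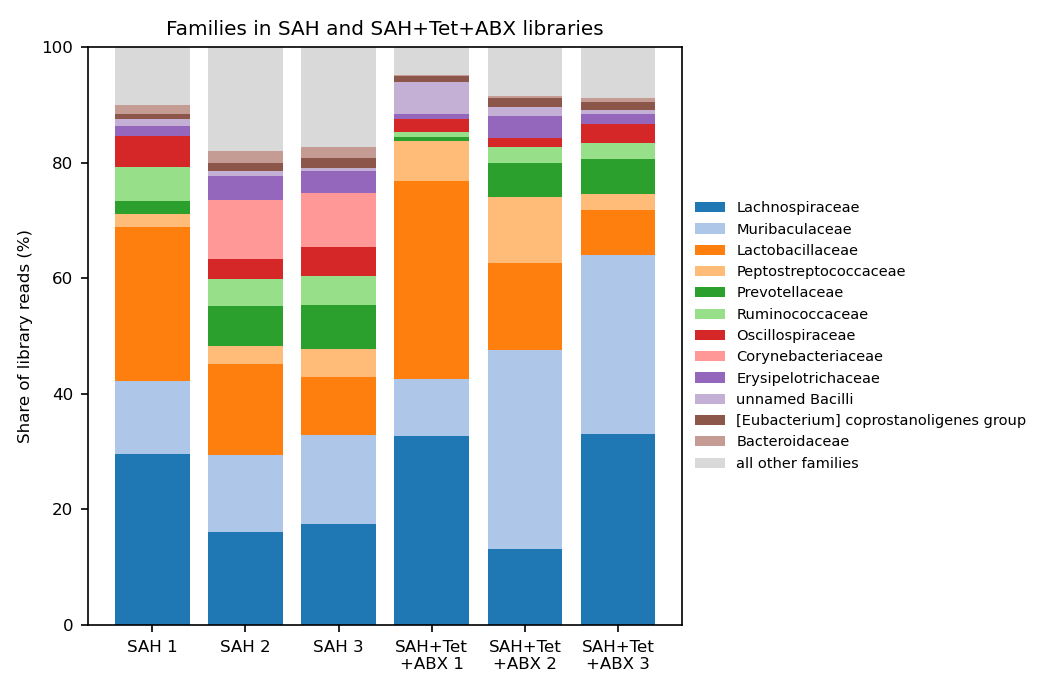
Stacked shares of library reads (%) for the 12 families with the largest mean share over the 3 SAH and 3 SAH+Tet+ABX libraries, with all other families in grey. Lachnospiraceae, Muribaculaceae and Lactobacillaceae filled most of both groups, and Corynebacteriaceae formed a visible band in SAH 2 and SAH 3 only (10.2% and 9.40%).

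The test called 23 of 92 families (25.0%): 22 were lower in SAH+Tet+ABX (23.9%) and 1 was higher (1.09%). In 13 of the lower families no read was found in any SAH+Tet+ABX library. Desulfovibrionaceae, which reduce sulfate, fell from 0.470%, 0.290% and 0.565% to 2 reads in all 3 libraries together (adjusted p = 0.000393). Helicobacteraceae, spiral bacteria of the mucus layer, fell from 0.277%, 0.226% and 0.539% to 0 reads, at least 266-fold lower (adjusted p = 0.000382). Lower bounds of this kind divide the mean share of the group with reads by the mean share of 3 reads per library in the other. They are bounds on group means, and single libraries can differ by less. Methanobacteriaceae, archaea that make methane from hydrogen, fell from 0.206%, 0.108% and 0.0158% to 0 reads, at least 84.1-fold lower (adjusted p = 0.00674). Saccharimonadaceae, of the tiny-celled Patescibacteria, fell from 0.0362%, 0.253% and 0.252% to 0 reads, at least 138-fold lower (adjusted p = 0.000445). Acidaminococcaceae and Leuconostocaceae were also called lower with 0 reads in SAH+Tet+ABX, but each had 0 reads in 1 SAH library as well. The family that rose was Peptococcaceae, from 0.170% ± 0.0350 to 0.661% ± 0.291, a log2 fold change of 2.12 ± 0.61 (adjusted p = 0.0265). Its call was lost without SAH 2, SAH 3 or SAH+Tet+ABX 2 (adjusted p of 0.0600 to 0.108), in the 6 libraries alone (0.0543), with depth class as a block (0.0778), with the replicate block (0.0680) and with no filter on low counts (0.213). Clostridiaceae, a family of spore-forming anaerobes, fell from 1.07% ± 0.727 to 0.139% ± 0.115, a log2 fold change of -2.70 ± 0.76 (adjusted p = 0.0242), although the groups overlapped. Its call was lost without SAH 2, SAH 3, SAH+Tet+ABX 1 or SAH+Tet+ABX 3. It was also lost in the 6 libraries alone (edgeR adjusted p = 0.0951) and with depth class as a block (0.257), but kept by DESeq2 (adjusted p = 0.0285). The log2 change of Clostridiaceae was 0.24 on the centred scale and -0.92 against SAH 1 alone. The error beside each log2 fold change is its size divided by the square root of the test's F statistic, and is not a fitted standard error. Of the families tested, 34 had no overlap between the groups (37.0%), 30 lower (32.6%) and 4 higher (4.35%). The count of families called fell to 13 without SAH 2 or without SAH+Tet+ABX 2, to 14 with depth class as a block, and to 11 with SAH 1 as the only SAH library, a fit in which the spread comes from the other groups and the lone library is assumed to vary like them.

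Genera showed the same asymmetry in finer detail. Of 200 genera with enough reads, 60 were called (30.0%), 49 of them lower in SAH+Tet+ABX (24.5%) and 11 higher (5.5%), and 90 had an unadjusted p below 0.05. The groups did not overlap for 71 genera (35.5%), 56 lower (28.0%) and 15 higher (7.5%). Together the genera called lower held 14.4%, 27.2% and 23.6% of the SAH libraries and 0.102%, 0.199% and 0.206% of the SAH+Tet+ABX libraries. The genera called higher went the other way, from 0.239% ± 0.0467 to 2.81% ± 1.45. These sums describe genera picked by the test and are no further evidence for it. Of the 49 lower genera, 35 had 0 reads in all SAH+Tet+ABX libraries and 41 had reads in all 3 SAH libraries. The filter on low counts spanned all groups, so a genus absent from SAH+Tet+ABX could pass it through the others. A genus found only in SAH+Tet+ABX needed enough reads in all 3 of its libraries, so the filter favoured lower genera. Without this filter edgeR called 9 genera higher and 60 lower, and with the SAH and SAH+Tet+ABX libraries alone 7 and 29. Families and ASVs passed the same filter, and without it the calls were 1 higher and 32 lower, and 38 and 205. Because so many genera had lower shares or no read in SAH+Tet+ABX, the reference level matters. When log shares were centred on the mean over all genera tested (limma), 65 genera were called, 40 higher and 25 lower, because the mean log2 share of all genera was itself lower by 2.38 in SAH+Tet+ABX. With log2 shares left uncentred, a setting added after the data were seen, limma called 14 higher and 46 lower. The median log2 change over all genera was -1.89 with the TMM scaling used throughout, -0.88 with genera at 0 reads set to their bound, and 0.10 after centring.

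Calls also depended on single libraries. The count of genera was 39 without SAH+Tet+ABX 2, and the other single omissions gave 43 to 72. The count of higher genera was 2 without SAH+Tet+ABX 2 or SAH+Tet+ABX 3, 5 without SAH 3, 6 without SAH 2 and 7 without SAH+Tet+ABX 1. When an antibiotic library was left out, 5 of the higher genera described below, with 0 reads in SAH, had reads in only 2 libraries of the comparison and failed the filter of 10 reads in 3 libraries. Against SAH 1 alone, the SAH library of matching depth, 42 of the 49 lower genera and all 11 higher ones kept their direction. This was largely fixed in advance and is no further evidence for the calls. Of the called genera, 41 lower and 10 higher did not overlap between the groups, so their shares lay on the same side of SAH 1. In the fit against SAH 1 alone the spread again comes from the other groups, and the lone SAH library is assumed to vary like them.

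The counts of the lists of genera below are to be read against all 200 genera, of which 24.5% fell and 5.5% rose. Of 19 tested genera on a list of short-chain fatty acid producing Clostridia, 3 fell, 1 rose and 15 were not called, with a median log2 change of -0.38. The reads of the list summed to 15.4%, 9.90% and 10.9% in SAH and 7.78%, 5.84% and 6.07% in SAH+Tet+ABX, without overlap. Roseburia, a flagellated butyrate producer, was 5.40%, 2.57% and 1.90% of the SAH libraries. In SAH+Tet+ABX it had 0 reads in replicates 1 and 3 and 0.0120% in replicate 2, a log2 fold change of -9.57 ± 2.04 (adjusted p = 0.00821). Every SAH library thus had at least 1.90%, and the call held when each of the 6 libraries was left out in turn. Ruminococcus, which holds fibre and starch degraders, was 4.89%, 3.73% and 2.72% against 0.00189%, 2.07% and 2.06%. Its groups did not overlap, but it was not called (adjusted p = 0.454), with SAH+Tet+ABX 1 far below the other antibiotic libraries.

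Another list held lineages known mostly from sequence, the uncultured Oscillospirales and their relatives. Of 18 tested, 6 fell, 0 rose and 12 were not called, beside 24.5% lower and 5.5% higher over all genera (median log2 change -1.44, or -0.78 with genera at 0 reads set to their bound). Clostridia UCG-014 was 1.96%, 1.81% and 1.41% in SAH. It had 0 reads in SAH+Tet+ABX 2 and 3 and 0.00851% in SAH+Tet+ABX 1, a log2 fold change of -9.50 ± 1.78 (adjusted p = 0.00381). UCG-005 was 3.21%, 1.71% and 1.61% against 0%, 0.0931% and 0.0327%, a log2 fold change of -5.62 ± 1.59 (adjusted p = 0.0231), and lost its call without SAH+Tet+ABX 3. UCG-010 was 0.105%, 0.539% and 0.476% against 0%, 0% and 0.00735% (log2 fold change -7.29 ± 1.81, adjusted p = 0.0142). Ruminococcaceae without a genus name were 0.258%, 0.392% and 1.03% against 0.0752%, 0.0760% and 0.128%, and this call was lost without SAH 3 or SAH+Tet+ABX 2. The summed share of the list was 7.83%, 7.03% and 7.76% in SAH and 1.51%, 2.57% and 2.95% in SAH+Tet+ABX. Its largest member, the [Eubacterium] coprostanoligenes group, and the Christensenellaceae R-7 group were not called, and both are described below.

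Among listed Bacteroidales, 6 of 15 tested genera fell and 0 rose, beside 24.5% and 5.5% over all genera (median log2 change -2.51, or -2.24 with bounds), while the mean summed share of the list was not lower. It was 16.6%, 22.4% and 24.9% in SAH and 10.7%, 40.5% and 38.0% in SAH+Tet+ABX, because Muribaculaceae and Alloprevotella make up most of it. Prevotella, a degrader of plant polysaccharides, was 0.0572%, 1.73% and 0.946% in SAH, and was found in SAH+Tet+ABX 2 alone, at 0.00214% (log2 fold change -10.16 ± 2.30, adjusted p = 0.0108). Prevotellaceae without a genus name were 0.220%, 0.860% and 0.409% in SAH and 0 reads in SAH+Tet+ABX, at least 379-fold lower (adjusted p = 0.000926). Prevotellaceae UCG-003 was 0.00121%, 2.37% and 1.31% in SAH and 0 reads in SAH+Tet+ABX (adjusted p = 0.0343). This last call rested on SAH 2 and SAH 3 and was lost in 5 of the 6 fits that leave out 1 library; the fit without SAH 1 kept it. Bacteroides, which uses host and plant glycans, was 1.54%, 2.19% and 1.87% against 0.0331%, 0.225% and 0.752%. Its groups did not overlap, but edgeR did not call it (adjusted p = 0.0687), while limma on uncentred log2 shares did (adjusted p = 0.0296). Neither DESeq2 (adjusted p = 0.0767) nor limma on centred log shares (adjusted p = 0.474) called it.

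Of the 5 genera of a list of mucus residents and sulfate reducers that had reads in SAH, 1, Akkermansia, had reads in SAH+Tet+ABX. The summed share of the list was 0.432% ± 0.234 in SAH and 1.18% ± 0.829 in SAH+Tet+ABX, where all of it was Akkermansia. Of 5 tested members 4 fell, beside 24.5% over all genera, and Akkermansia was the member with no call; the median log2 change was -7.66, or -2.20 with bounds. Helicobacter was 0.277%, 0.226% and 0.539% in SAH and 0 reads in SAH+Tet+ABX, at least 266-fold lower (adjusted p = 0.000905). Desulfovibrio, a sulfate reducer that makes hydrogen sulfide, was 0.0101%, 0.0299% and 0.105% in SAH and 0 reads in SAH+Tet+ABX, at least 36.9-fold lower (adjusted p = 0.00197). The related group written as uncultured (Desulfovibrionaceae) was 0.459%, 0.258% and 0.450% in SAH and 2 reads, all in SAH+Tet+ABX 3, in the other group (adjusted p = 0.000905). Akkermansia, which feeds on mucin, lay on the other side, at 0%, 0.0442% and 0.0334% in SAH and 0.244%, 1.46% and 1.83% in SAH+Tet+ABX. Its groups did not overlap, yet edgeR did not call it (adjusted p = 0.0687), while limma on uncentred log2 shares did (adjusted p = 0.0405). Small groups with no read in SAH+Tet+ABX included Candidatus Saccharimonas, at least 138-fold lower, Elusimicrobium, at least 30.3-fold lower, and Treponema, at least 29.6-fold lower (adjusted p = 0.00122, 0.0174 and 0.0215).

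Aerobic or facultative Gram-positive genera of skin and environment were abundant in SAH 2 and SAH 3 and scarce in SAH 1 and all antibiotic libraries. The list summed to 0.0991%, 13.3% and 12.1% in SAH and to 0.143%, 0.0303% and 0.0596% in SAH+Tet+ABX, so SAH 1 lay inside the antibiotic range. Of 10 tested members 4 fell and 0 rose, beside 24.5% and 5.5% over all genera, namely Corynebacterium, Jeotgalicoccus, Aerococcus and Facklamia (median over the list -10.37, or -6.46 with bounds). Corynebacterium was 0.0451%, 10.2% and 9.40% against 0.0137%, 0.00299% and 0.00327%, a log2 fold change of -10.06 ± 2.48 (adjusted p = 0.0140). That call was lost against SAH 1 alone and without SAH+Tet+ABX 2 or SAH+Tet+ABX 3. Jeotgalicoccus was 0.00322%, 0.538% and 0.496% in SAH and 2 reads, both in SAH+Tet+ABX 1, in the other group (adjusted p = 0.0343). Only the omission of SAH 1 left its call in place. Across all 49 lower genera, 12 had an SAH 1 share below 1% of the mean of SAH 2 and SAH 3, and these 4 genera were among them. The part of this split within the SAH group in the difference between groups was not tested.

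**Figure D2:**
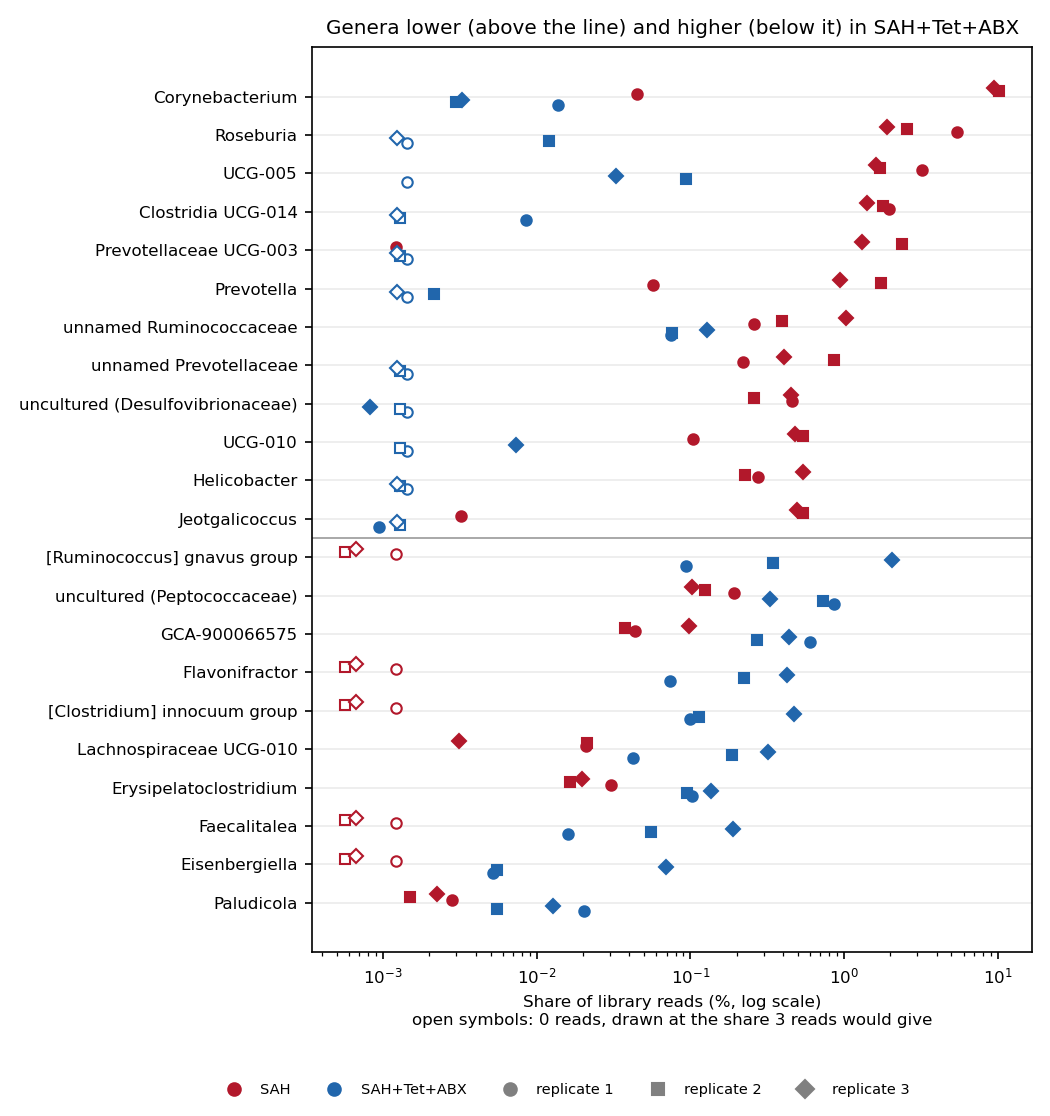
Share of library reads (%, log scale) of the 12 most abundant of the lower genera, and the 10 higher genera, that passed the test without overlap between groups, with 1 symbol per library; 0 reads is drawn as an open symbol at the share of 3 reads, so 1 or 2 reads lie to its left. Roseburia, Clostridia UCG-014 and Helicobacter separate in all libraries, whereas the SAH 1 circle of Corynebacterium, Prevotellaceae UCG-003 and Jeotgalicoccus lies near the SAH+Tet+ABX symbols.

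The genera that rose were all Firmicutes of low share, 5 of them Lachnospiraceae, and 6 of the 11 had no read in any SAH library. Of the Firmicutes tested, 127 genera, 26 fell and 11 rose, and of the 33 Lachnospiraceae 5 fell and 5 rose. On the list of Blautia and allied Lachnospiraceae, 4 of 11 tested genera rose and 1 fell, beside 5.5% and 24.5% over all genera, with a median log2 change of 0.53. Of the 11, 8 had reads in SAH, and members without them could not come out lower. Some of those passed the filter only through SAH+Tet+ABX, so the count of risers is no evidence of an excess. The [Ruminococcus] gnavus group, which degrades mucin glycans, had 0 reads in SAH and 0.0936%, 0.342% and 2.06% in SAH+Tet+ABX, at least 1024-fold higher (adjusted p = 0.0174). Flavonifractor, which cleaves plant flavonoids, had 0 reads in SAH and 0.0733%, 0.222% and 0.428% in SAH+Tet+ABX, at least 296-fold higher (adjusted p = 0.0108). The [Clostridium] innocuum group had 0 reads in SAH and 0.0993%, 0.114% and 0.472% in SAH+Tet+ABX, at least 281-fold higher (adjusted p = 0.0108). In each of these the highest value was in SAH+Tet+ABX 3. All 3 antibiotic libraries carried each genus, but the filter on low counts fixed this in advance. Each genus failed that filter when any antibiotic library was left out, so its presence in all 3 is no further evidence for the call. Faecalitalea and Eisenbergiella likewise had 0 reads in SAH and were at least 107-fold and 33.0-fold higher (adjusted p = 0.0174 and 0.0360). Eisenbergiella lost its call without SAH 2 or SAH 3. The [Ruminococcus] torques group also rose from 0 reads in SAH, but had 0 reads in SAH+Tet+ABX 1 as well.

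Other genera that rose were present in both groups. GCA-900066575, an uncultured genus of Lachnospiraceae, was 0.0435%, 0.0374% and 0.0983% in SAH and 0.597%, 0.272% and 0.438% in SAH+Tet+ABX, a log2 fold change of 2.80 ± 0.65 (adjusted p = 0.0108). Among the 10 named higher genera it was the only one whose call held without each of the 6 libraries in turn; those with 0 reads in SAH failed the filter when an antibiotic library was left out. The Peptococcaceae group without a genus name was 0.193%, 0.124% and 0.102% against 0.860%, 0.731% and 0.330% (log2 fold change 2.11 ± 0.72, adjusted p = 0.0485). Lachnospiraceae UCG-010 was 0.0209%, 0.0213% and 0.00312% against 0.0426%, 0.186% and 0.320% (log2 fold change 3.53 ± 1.11, adjusted p = 0.0356). Each lost its call in 5 of the 6 fits that leave out 1 library; the exceptions were the fits without SAH+Tet+ABX 3 for the first and without SAH+Tet+ABX 1 for the second. Erysipelatoclostridium, of the Erysipelotrichales, was 0.0306%, 0.0164% and 0.0196% against 0.103%, 0.0944% and 0.135% (log2 fold change 2.24 ± 0.73, adjusted p = 0.0403). Paludicola was 0.00282%, 0.00151% and 0.00223% against 0.0203%, 0.00555% and 0.0127% (adjusted p = 0.0344). Without SAH 2 or SAH 3 neither of these passed, nor did Erysipelatoclostridium without SAH+Tet+ABX 2, Paludicola without SAH+Tet+ABX 1, or either without SAH+Tet+ABX 3. Of the 9 tested genera on the Erysipelotrichales list 2 rose and 0 fell, beside 5.5% and 24.5% over all genera (median log2 change 1.18). Of its 10 members detected in the study, 8 had reads in SAH, and members without them could not come out lower. Dubosiella, the most abundant genus of the list, was 0.322%, 3.11% and 2.82% in SAH and 0%, 0.243% and 0.0498% in SAH+Tet+ABX, without a call (adjusted p = 0.128). The list does not cover every genus of these families. Of all 9 tested Erysipelotrichaceae genera 2 rose and 1 fell, and of 3 tested Erysipelatoclostridiaceae genera 1 rose and 0 fell.

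The other lists held fewer genera, and their counts too stand beside 24.5% lower and 5.5% higher over all 200. Of 7 tested lactic acid bacteria and bifidobacteria, 2 fell (Weissella and Lactococcus), 0 rose and 5 were not called, with a median log2 change of -4.27 (-3.67 with bounds). Weissella, a lactic acid bacterium of plant material, was 0%, 0.522% and 0.465% in SAH and 0 reads in SAH+Tet+ABX, so SAH 1, like the antibiotic libraries, had no read of it. The summed share of the list stayed near that of Lactobacillus, at 18.8% ± 7.66 and 20.1% ± 13.4. None of the 6 tested Proteobacteria on the list of enterobacteria and relatives was called by edgeR (0 at an unadjusted p below 0.05) or by DESeq2. Escherichia-Shigella, the enterobacteria that often bloom when the gut community is disturbed, was 0.0129%, 0.183% and 0.238% in SAH and 0.0553%, 0.0154% and 0.0604% in SAH+Tet+ABX. Of 5 tested Peptostreptococcales and Clostridiaceae edgeR called 0 (0 at an unadjusted p below 0.05), while DESeq2 called Romboutsia (adjusted p = 0.0330), at 2.40%, 3.18% and 4.83% against 6.89%, 11.4% and 2.76%. Clostridium sensu stricto 1, of the Clostridiaceae, was 0.193%, 1.48% and 1.42% against 0%, 0.271% and 0.0408%, without a call (adjusted p = 0.164), while the family as a whole was called lower, as given above. Among 6 tested Coriobacteriia 2 fell, Collinsella and DNF00809. Among 5 of the Spirochaetota, Patescibacteria and Cyanobacteria list 3 fell, but that list also holds Elusimicrobium, which fell, and Anaeroplasma, which belong to none of these phyla. Of all tested genera of the phyla themselves, 1 of 2 Spirochaetota, 1 of 1 Patescibacteria and 0 of 1 Cyanobacteria fell.

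Levels in the remaining groups of the study, which had no antibiotics, place these genera. The [Ruminococcus] gnavus group, Flavonifractor, Faecalitalea and Eisenbergiella had 0 reads in every Sham and SAH+Tet library. Roseburia was 2.44% ± 0.684 in Sham and 0.925% ± 0.519 in SAH+Tet, and Clostridia UCG-014 3.20% ± 0.658 and 2.44% ± 1.31. Helicobacter was 0.330% ± 0.187 in Sham and 0.627% ± 0.200 in SAH+Tet. Of the 49 lower genera, 41 had reads in all 3 SAH+Tet libraries and 42 in all 3 Sham libraries. These counts follow in part from the filter, since 35 of the 49 had 0 reads in SAH+Tet+ABX and passed it through the other groups. No such count was made over all 200 genera tested. Corynebacterium was 0.00785% ± 0.00351 in Sham and 5.85% ± 5.29 in SAH+Tet, so its level in the antibiotic libraries, 0.00666% ± 0.00611, was near that of Sham. Akkermansia was 2.77% ± 2.33 in Sham and 0.0176% ± 0.0263 in SAH+Tet.

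A set of abundant genera had similar mean shares in both groups. Of 36 genera with a mean of at least 0.1% in both, 17 had means within 1.5-fold of each other and overlapping libraries, which is how they were chosen, and 0 of the 17 were called by edgeR (0 at an unadjusted p below 0.05) and 0 by limma on uncentred log2 shares, against 3 by limma on centred ones. Together they took 42.8%, 27.9% and 26.0% of the SAH libraries and 45.3%, 27.9% and 27.7% of the SAH+Tet+ABX libraries. The genus just inside the 1.5-fold limit was Fusicatenibacter (1.37), and the genus just outside it was Incertae Sedis (1.54). A missed threshold does not show that levels are equal, so 95% intervals of the log2 difference in share (limma, uncentred) are given.

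Pseudomonas, an aerobic proteobacterium, had the narrowest spread: 0.663%, 0.704% and 0.881% in SAH and 0.988%, 0.666% and 0.791% in SAH+Tet+ABX, with an interval of -0.96 to 1.19. It was 0.994% ± 0.130 in Sham and 0.860% ± 0.0424 in SAH+Tet, and the source of its reads was not tested. The [Eubacterium] coprostanoligenes group, named for a bacterium that reduces cholesterol, was 0.989%, 1.30% and 1.83% against 1.14%, 1.57% and 1.32% (interval -1.21 to 1.22). Even these narrow intervals allow a change of more than 1 log2 unit in at least 1 direction. Lactobacillus, which ferments sugars to lactic acid, was 26.5%, 15.5% and 10.1% against 34.3%, 15.2% and 7.66% (interval -1.63 to 1.59). Its spread within a group was far larger than the difference between the means of 17.4% and 19.0%. The Lachnospiraceae NK4A136 group was 1.90%, 1.40% and 2.41% against 3.74%, 1.87% and 0.544% (interval -1.85 to 1.34). Alloprevotella, a saccharolytic Prevotellaceae genus, was 0.833%, 1.01% and 3.76% against 0.320%, 2.21% and 4.59% (interval -2.22 to 2.24), and Parasutterella 0.321%, 0.620% and 0.398% against 0.181%, 1.15% and 0.475% (interval -1.69 to 1.90). For the [Eubacterium] xylanophilum group and unnamed Oscillospiraceae the intervals were -1.36 to 2.03 and -1.59 to 1.08.

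Similar means hid large differences between libraries in 4 further genera. Blautia, which ferments sugars to acetate, was 5.76%, 2.77% and 0.476% against 0.507%, 1.24% and 4.89% (interval -3.13 to 2.26). Bifidobacterium was 0.0975%, 1.03% and 0.897% against 0.00615%, 1.78% and 0.647% (interval -5.43 to 3.02). Fusicatenibacter was 2.12%, 0.900% and 0.00936% against 0%, 0.0209% and 2.19%, and the Christensenellaceae R-7 group 0.439%, 0.537% and 0.603% against 0%, 0.290% and 0.947%. Their intervals, -10.34 to 3.21 and -9.08 to 1.69, leave almost any difference possible. SAH+Tet+ABX 1 was the lowest antibiotic library for all 4. On the centred scale every one of these differences is higher by the 2.38 given above, for example 2.36 (interval -0.06 to 4.77) for Lactobacillus and 2.49 (interval 0.80 to 4.18) for Pseudomonas.

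**Figure D3:**
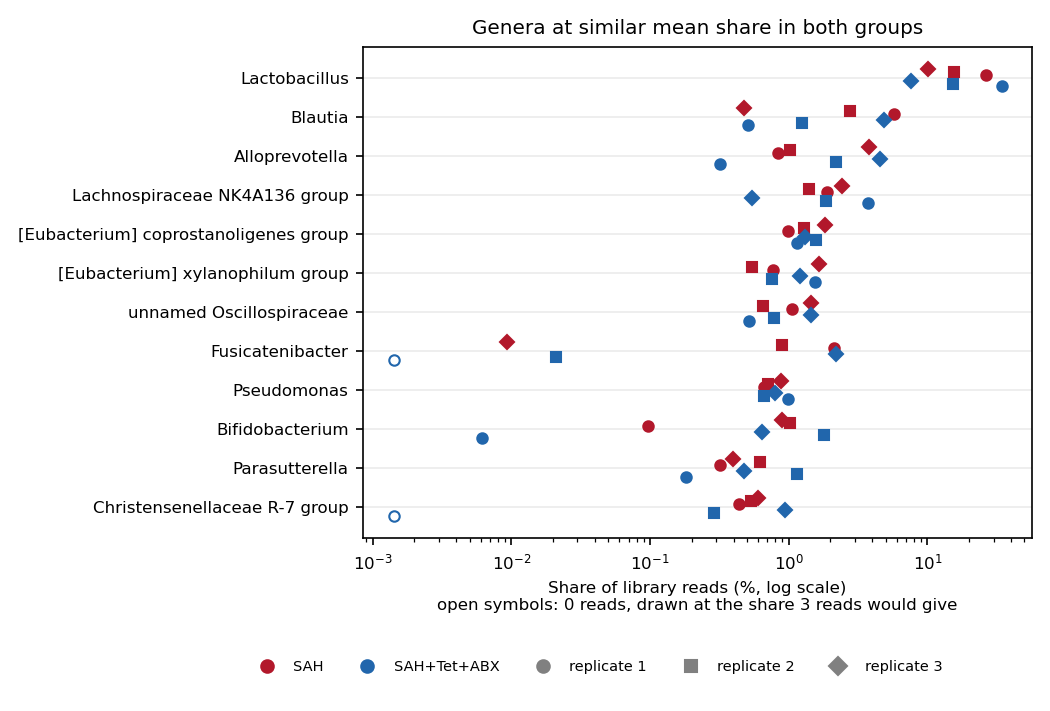
Share of library reads (%, log scale) of the 12 most abundant genera chosen for similar group means, with 1 symbol per library. Pseudomonas and the [Eubacterium] coprostanoligenes group lie within a narrow band in all 6 libraries, while Fusicatenibacter, Bifidobacterium and the Christensenellaceae R-7 group spread over several orders of magnitude within a group.

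Some lineages with similar mean shares were made of different sequence variants in the groups. The SAH libraries together held 3190 ASVs and the SAH+Tet+ABX libraries 1101, of which 444 were found in both groups, 13.9% of the SAH set and 40.3% of the SAH+Tet+ABX set. These shared ASVs carried 54.8% ± 8.75 of SAH reads and 78.9% ± 11.6 of SAH+Tet+ABX reads. A set of 88 ASVs had reads in all 6 libraries and made up 33.4% ± 8.25 and 58.3% ± 8.58 of reads. Another 333 were in every SAH library and in no SAH+Tet+ABX library, with 24.1%, 21.5% and 23.2% of SAH reads. The reverse set had 47 ASVs and 10.7%, 4.89% and 6.06% of SAH+Tet+ABX reads.

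Turnover within a lineage was compared at 211450 reads per library. In the Lachnospiraceae NK4A136 group 82 ASVs were found in SAH and 22 in SAH+Tet+ABX, with 4 in common, which held 1.46%, 3.56% and 17.5% of its SAH reads and 0%, 2.79% and 0% of its SAH+Tet+ABX reads. The mean Bray-Curtis distance of its ASV shares (0 for identical, 1 for nothing in common) was 0.994 between the groups, against 0.578 within SAH and 0.694 within SAH+Tet+ABX. In the [Eubacterium] coprostanoligenes group, whose share was so even, 4 ASVs of 31 and 11 were common, with a distance of 0.966 between groups and 0.441 within SAH. There the antibiotic libraries also differed from each other (0.993), each led by an ASV with 59.0%, 78.8% and 98.2% of the group's reads. In Ruminococcaceae, whose mean shares were not alike, 16 ASVs of 225 and 57 were common and held 4.78% ± 1.18 of the family's SAH reads and 29.6% ± 17.9 of its SAH+Tet+ABX reads. Its distance was 0.975 between groups, 0.521 within SAH and 0.904 within SAH+Tet+ABX, so the antibiotic libraries differed from each other almost as much as from SAH.

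Other lineages kept their variants. Pseudomonadaceae consisted of 1 ASV in all SAH+Tet+ABX libraries, and the same ASV held 99.6%, 99.0% and 98.7% of the family in the SAH libraries. In Romboutsia, a genus of Peptostreptococcaceae, the 7 ASVs of SAH were all found in SAH+Tet+ABX and held 98.3% ± 1.44 of its reads there, with distances of 0.155 between groups and 0.0393 and 0.0482 within them. Lactobacillaceae had 8 common ASVs, of 36 in SAH and 20 in SAH+Tet+ABX, with 98.1% ± 1.61 and 97.9% ± 1.37 of reads. The proportions of these ASVs varied more, with a distance of 0.435 between groups, 0.125 within SAH and 0.430 within SAH+Tet+ABX. Muribaculaceae lay between: of 352 ASVs in SAH and 166 in SAH+Tet+ABX, 103 were common. These carried 97.1% ± 0.228 of the family's SAH+Tet+ABX reads but 90.0%, 57.6% and 65.8% of its SAH reads. Alloprevotella had 19 ASVs over the SAH libraries and 4 over the SAH+Tet+ABX libraries at similar share. These are descriptions of 6 libraries and were not tested.

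**Figure D4:**
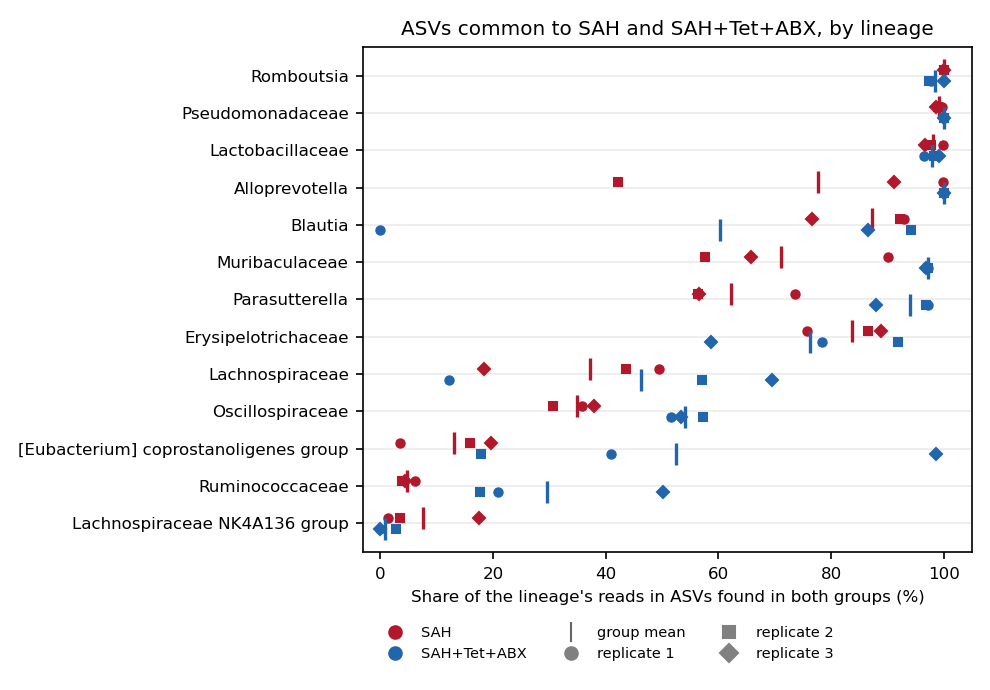
For 13 families and genera, the share (%) of the lineage's reads in each library that belonged to ASVs found in both groups, at 211450 reads per library; symbols are libraries and vertical ticks are group means. Romboutsia, Pseudomonadaceae and Lactobacillaceae lie above 96% in all libraries, whereas the Lachnospiraceae NK4A136 group reaches 17.5% at most.

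Among single ASVs, ASV10, a Roseburia variant, was 5.13%, 2.27% and 0.0319% in SAH and 0 reads in SAH+Tet+ABX, at least 1893-fold lower (edgeR adjusted p = 0.0194). ASV24, of Ruminococcus, was 2.26%, 1.09% and 0.197% in SAH and 0 reads in SAH+Tet+ABX, at least 905-fold lower (edgeR adjusted p = 0.0413), although another Ruminococcus variant, ASV157, was absent from SAH and reached 1.96% in SAH+Tet+ABX 2. ASV119 carried all reads of the [Ruminococcus] gnavus group (edgeR adjusted p = 0.0496). ASV74, of Lachnospiraceae without a genus name, had 0 reads in SAH and 4.74%, 0.0431% and 0.0886% in SAH+Tet+ABX, and was not called (edgeR adjusted p = 0.0626). ASV1, the leading Lactobacillus variant, was 19.7%, 11.2% and 6.58% against 16.8%, 3.10% and 3.59%, and ASV6, another Lactobacillus variant, 1.43%, 1.01% and 0.570% against 1.66%, 9.71% and 2.95%; neither was called. The Lactobacillus share was therefore made up differently in SAH+Tet+ABX 2, where ASV6 exceeded ASV1. Over all 2394 ASVs tested, edgeR called 187 (7.81%), 180 lower (7.52%) and 7 higher (0.292%), and 1158 had an unadjusted p below 0.05. This count was the least stable: it was 0 without SAH+Tet+ABX 2 or SAH+Tet+ABX 3 (748 and 730 at an unadjusted p below 0.05), 56 without SAH+Tet+ABX 1, 97 without SAH 2 and 438 without SAH 1. Groups did not overlap for 450 ASVs (18.8%), 362 lower (15.1%) and 88 higher (3.68%). With all 6 libraries, DESeq2 called 787 and limma on centred log shares 212.

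Fewer ASVs were found in the antibiotic libraries at equal depth. The number expected in 211450 reads was 1166, 2156 and 1946 in SAH and 440, 659 and 621 in SAH+Tet+ABX. The difference of means was -1182 (two-sided exact permutation p = 0.1, the smallest possible with 3 against 3). Every SAH+Tet+ABX library lay below every SAH library, also against SAH 1, the poorest SAH library, where the difference was -592. The number of genera with reads was 167, 230 and 216 against 109, 129 and 135 (exact permutation p = 0.1). Shannon diversity of ASVs (natural log) was 4.77, 5.49 and 5.70 against 3.93, 4.50 and 4.86, a difference of -0.89 (exact permutation p = 0.2), with SAH 1 below SAH+Tet+ABX 3, and the difference from SAH 1 alone was -0.34. Shannon diversity of genera did not overlap, at 3.32 ± 0.281 against 2.52 ± 0.241. Sham and SAH+Tet libraries held 2271 ± 61.9 and 2066 ± 642 ASVs at this depth.

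**Figure D5:**
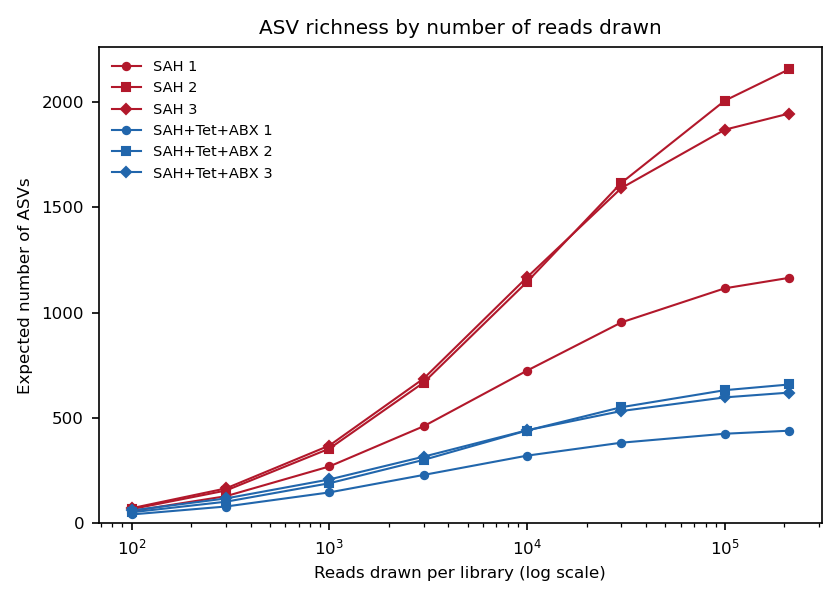
Expected number of ASVs against the number of reads drawn (log scale), up to 211450 reads, for each library. The 3 SAH+Tet+ABX curves end at 440 to 659 ASVs, below SAH 1 (1166) and well below SAH 2 and SAH 3 (2156 and 1946).

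Libraries of different groups lay farther apart on average than libraries of the same group. The Bray-Curtis distance of ASV shares was 0.748 ± 0.0315 between groups, 0.484 ± 0.155 within SAH and 0.629 ± 0.186 within SAH+Tet+ABX. Group accounted for 43.0% of the variation (permutational analysis of variance, exact permutation p = 0.1, the smallest possible). SAH+Tet+ABX 1 was as far from its own group (0.703 and 0.767) as from SAH (0.740 on average), and group accounted for 60.9% of the variation without it. At the level of genera, group accounted for 40.6% (exact permutation p = 0.1), and at the level of families for 36.1% (exact permutation p = 0.2). The mean distance between groups shrank from 0.748 for ASVs to 0.470 for genera and 0.372 for families, and the distance within SAH+Tet+ABX from 0.629 to 0.422 and 0.357.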

How the data were processed

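Reads of the 16S rRNA gene from rat faeces were analysed in 3 SAH and 3 SAH+Tet+ABX libraries, within a table of 12. Groups were taken from the treatment label. The titles of the SAH+Tet+ABX samples read T_A and their count columns S_T_A. Every sample also carries a second treatment label, naming a cell differentiation protocol that does not match rat faeces, which was not used. The files hold counts: raw reads per ASV with its lineage, as deposited by the authors. Per the submitters' processing notes, fastp and cutadapt were used; the sources used here do not give the denoiser, 16S region, chimera filter or taxonomy database, which set how many ASVs are reported. The 2 eukaryotic ASVs of 7240 were left out, and reads were summed into 393 genera and 189 families, those without a genus name under their deepest named rank. Names at the genus rank covered 70.1% to 90.5% of reads in the 6 libraries. They include names of higher rank or placeholders, such as Muribaculaceae and Clostridia UCG-014, so fewer reads carry the name of a true genus. Replicates differed beyond counting noise (lowest chi-square per degree of freedom 87.1), so none was merged. PCR copies are not independent molecules.

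Features with at least 10 reads in at least 3 of the 12 libraries were tested by the quasi-likelihood method of edgeR 4.0.16 (R 4.3.3, TMM, group as the only term, spread estimated over all 12 libraries) and adjusted by Benjamini-Hochberg at 0.05. The procedure was also run on simulated counts with seeded changes, whose outcome is not reported here and on which no result above rests. Alternatives were DESeq2 1.42.0, limma 3.58.1 on log2 shares with 0.5 reads added, other scalings and filters, the 6 libraries alone, depth class (below or above 300000 reads) as a block, thinning to the smallest library and leaving out each library. Richness was the hypergeometric expectation.

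Named genera are those past the threshold without overlap (up to 12 by mean share in each direction), up to 12 of similar share, the largest members of 13 genus lists, families of at least 1% or called, and the largest ASVs found in all libraries of 1 group or of both. Treponema, Facklamia, Lactococcus and the [Ruminococcus] torques group were named after their values were seen. The comparison, members and lists were chosen with earlier results of these data known.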

Additional observations from a re-analysis of the deposited data

How the results depend on the processing

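Genera called (60) numbered 36 in the 6 libraries alone, 34 with the replicate block, 21 with SAH 1 as the only SAH library and 39 to 72 when 1 library was left out. Families called (23) numbered 38 with DESeq2, 15 in the 6 libraries alone, 14 with depth class as a block, 13 with the replicate block, 11 with SAH 1 alone and 13 to 28 when 1 library was left out. ASVs called (187) numbered 787 with DESeq2, 443 with at least 50 reads in 3 libraries, 347 in the 6 libraries alone, 123 with depth class as a block, 637 after thinning, 86 with the replicate block, 64 with SAH 1 alone, 342 with limma on uncentred log2 shares and 0 to 438 when 1 library was left out. The settings SAH 1 alone and uncentred log2 shares were chosen after seeing the data. The centred log-ratio fit turned the split of called families from 1 higher and 22 lower to 19 and 11, and that of ASVs from 7 and 180 to 87 and 125. Of the 12 named lower genera, 9 kept their call with depth class as a block and 5 with SAH 1 alone, where the spread comes from the other groups (Roseburia, Clostridia UCG-014, unnamed Prevotellaceae, uncultured Desulfovibrionaceae and Helicobacter); of the 10 named higher genera, 3 and 0 did. DESeq2 kept all 22. Among named genera and families that were called, the direction turned for Clostridiaceae alone, at 0.24 (log2) in the centred fit, where the shift for families was -3.06. Among those not called, the centred fit also turned Ruminococcaceae (1.54), Oscillospiraceae (2.09), Erysipelotrichaceae (from -0.33 to 2.35, limma adjusted p = 0.0446), Lactobacillus (2.36), Blautia (1.94), the [Eubacterium] coprostanoligenes group (2.38) and unnamed Oscillospiraceae (2.12). Same-numbered libraries of the groups did not deviate together (correlations -0.171, 0.0875 and -0.216), so replicate numbers were not taken as pairs and the replicate block changed counts as given. Richness and Shannon differences from SAH 1 alone were -592 and -0.34, with leave-one-out ranges of -1478 to -982 and -1.17 to -0.64. Bray-Curtis variation was 53.2% with square roots of shares and 36.5% to 60.9% when 1 library was left out. With 3 libraries a group, exact permutation cannot go below p = 0.1, and 0 reads in the shallowest library leaves shares up to 0.00142% possible.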
